A study of Mus musculus with 12 samples.

Results

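The genes of fatty acid uptake examined here were Lpl, Gpihbp1, Angptl4, Vldlr, Cd36, Slc27a1, Slc27a4, Fabp3, Fabp4 and Fabp5, chosen by symbol for their known roles. These are 10 of the 55401 genes counted in each library, and all 10 were among the 16540 genes that passed the filter on low counts. RNA from scWAT, the white fat under the skin, was sequenced as 12 libraries, 1 per female mouse, with 3 mice in each of 4 groups. Wild-type (WT, Jmjd1a +/+) and homozygous mutant (Jmjd1a HY/HY, below HY/HY) mice spent 1 week at either 30°C or 8°C. Every mouse was individually caged, was of 16 weeks of age by the study's methods and had first spent 1 week at 30°C, which is thermoneutral for a mouse. The HY allele is a germline knock-in on the C57BL/6J background, in every cell of the mouse and, for females, from a single line, that replaces a histidine of the catalytic centre of JMJD1A with tyrosine and leaves the histone demethylase inactive. Being a change of a single amino acid, it cannot be read from gene counts. The comparisons therefore ask how 1 week of cold changed these genes in each genotype, how the genotypes differed at each temperature, and whether the cold responses differed. In such bulk samples, fewer cells of a type and less RNA per cell cannot be told apart.

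Fat reaches the adipocyte by a chain of steps. Lipoprotein lipase, made by adipocytes and encoded by Lpl, is carried across the capillary wall by GPIHBP1 and frees fatty acids from circulating triglyceride, and ANGPTL4 inactivates the enzyme. VLDLR binds triglyceride-rich lipoproteins, while CD36 and the fatty acid transport proteins FATP1 (Slc27a1) and FATP4 (Slc27a4) take part in bringing fatty acids into the cell. Inside the cell, the fatty acid binding proteins carry them: FABP4 is the adipocyte form, FABP5 a further form of adipocytes and macrophages, and FABP3 the form of heart, muscle and brown fat. Brown and beige adipocytes burn such fatty acids for heat.

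Fabp3 is the gene with the largest change below, and its promoter is shown for that reason. It lies just before the start of Fabp3 on the plus strand (chr4:130308488-130308737, GRCm38.p6, RefSeq). The capitals mark TGACG, the first bases of a cAMP response element, whose first letter is 149 bases before the start, and TATTTAA, an AT-rich stretch whose first letter is 29 bases before it.

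Fabp3: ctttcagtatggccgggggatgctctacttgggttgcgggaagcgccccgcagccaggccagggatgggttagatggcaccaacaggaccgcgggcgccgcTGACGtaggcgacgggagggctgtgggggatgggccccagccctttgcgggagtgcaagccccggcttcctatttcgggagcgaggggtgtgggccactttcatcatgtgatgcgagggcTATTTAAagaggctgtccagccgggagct

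Of 32851 promoter windows of this length, 17.8% hold TGACG on either strand and 4.18% hold TATTTAA. The full response element TGACGTCA, found in 1.55% of the windows, and TATAAA, found in 12.4%, are not in this one, and neither is AGGTCA (14.02%), a binding site core of nuclear receptors such as PPARs. The letters searched were chosen after the sequence was seen, and TGACG is itself the start of TGACGTCA. Windows were at hand for 5 of the 10 genes, Slc27a4, Fabp3, Cd36, Slc27a1 and Vldlr. AGGTCA stands in that of Cd36 alone, on the strand opposite to the gene, 228 bases before the start of the window's transcript. That window (chr5:17835897-17836146) lies inside the span of the gene, not at its outer end.

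The total of counted read pairs per library was between 18305586 and 23652011 in WT mice at 30°C, 21043000 and 26352081 in HY/HY mice at 30°C, 14722081 and 17955584 in WT mice at 8°C, and 13592629 and 15936452 in HY/HY mice at 8°C. Levels are CPM, the counts of a gene scaled to a fixed library size with TMM factors, and a call needed an adjusted p under 0.05 (edgeR's quasi-likelihood test, adjusted over all 16540 genes) with a fold change above 1.5 or below 0.67. The 8 white adipocyte markers, led by Adipoq and Plin1, were detected in every library. The summed level of 10 skeletal muscle markers was 1427 CPM in WT mouse 2 at 30°C and at most 24.2 CPM in the other libraries. That library and HY/HY mouse 3 at 30°C, whose nearest library was of another group, stood apart from their groups. Over all genes tested, library totals in place of TMM gave a median log2 fold change of -0.41 rather than -0.07 for cold in WT mice, -0.15 rather than -0.01 for cold in HY/HY mice, 0.15 rather than 0.01 between the genotypes at 8°C and 0.25 rather than 0.04 for the difference of cold responses, so changes below are relative to the TMM scale.

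Per kilobase of transcript, Fabp4 was the highest of the 10 genes in every group, from 19298 CPM per kb in WT mice at 30°C to 35034 CPM per kb in HY/HY mice at 8°C. Lpl was next in every group, at 893 and 1294 CPM per kb in WT mice at 30°C and 8°C and at 1261 and 1873 CPM per kb in HY/HY mice. In WT mice at 30°C, Cd36 (452), Slc27a1 (233), Fabp5 (214), Gpihbp1 (210.3), Angptl4 (34.7), Slc27a4 (10.8), Vldlr (5.02) and Fabp3 (0.825) followed in CPM per kb. Slc27a1, Fabp5 and Gpihbp1 overlapped as neighbours there, whereas the other neighbours did not. At 8°C the order changed for several genes. In WT mice Fabp5 (872 CPM per kb) then stood above Cd36 (683) and Slc27a1 (447). The largest change of rank was that of Fabp3. It was the last of the 10 genes at 30°C in both genotypes, at rank 3 and 1160 CPM per kb in WT mice at 8°C, where its libraries overlapped those of Lpl and Fabp5, and at rank 7 and 115 CPM per kb in HY/HY mice at 8°C, where they overlapped those of Gpihbp1 and Angptl4.

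**Figure D1:**
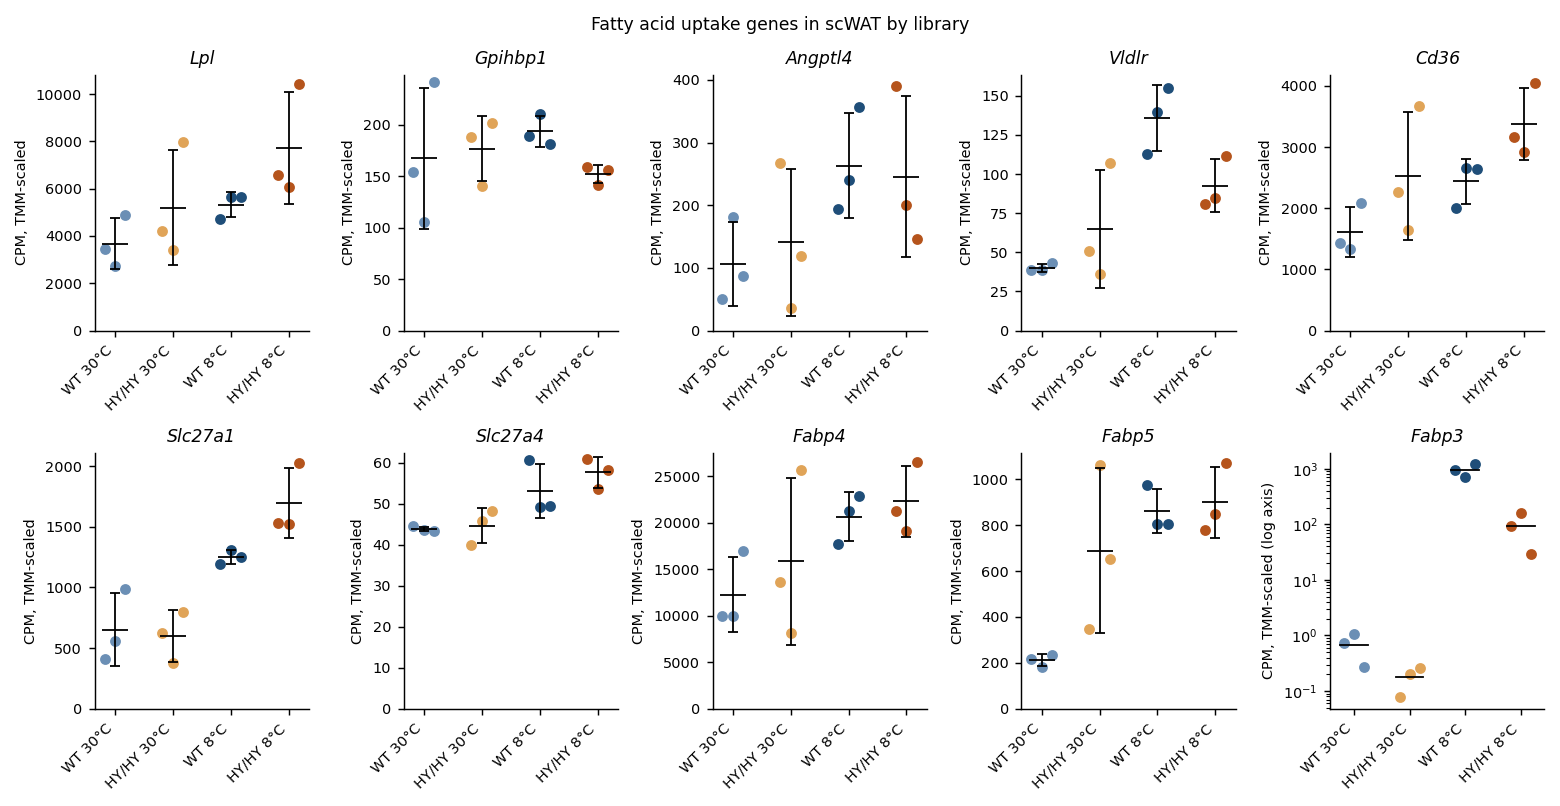
CPM of the 10 genes in each library (points, 3 mice per group) with the group mean and SD (bars; for Fabp3, on a log axis, the mean alone). Fabp3 lies at or below 1.05 CPM in all 6 libraries at 30°C, at 724 CPM or more in WT mice at 8°C and between 29.2 and 163 CPM in HY/HY mice at 8°C.

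The gene at the first step, Lpl (chr8:68880555-68906932, GRCm38.p6), was not called in any comparison. Its level was 3430.4, 2730.0 and 4866 CPM in the WT mice at 30°C and 4699, 5644 and 5629 CPM at 8°C. In HY/HY mice it was 4208, 3397 and 7966 CPM at 30°C and 6596, 6088 and 10432 CPM at 8°C. The groups overlapped between temperatures in both genotypes, whereas at 8°C every HY/HY library lay above every WT library. The log2 fold change by cold was 0.53 (SE 0.34) in WT mice and 0.57 (SE 0.34) in HY/HY mice, with adjusted p of 0.273 and 0.471, and between the genotypes at 8°C it was 0.53 (SE 0.34, adjusted p = 0.399, edgeR). The 95% interval of that last difference ran from 0.861-fold to 2.43-fold.

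Gpihbp1 (chr15:75596630-75598213), which anchors the lipase on capillary endothelium, was likewise not called. It stood at 154, 106 and 242 CPM in WT mice at 30°C and at 189, 211 and 182 CPM at 8°C. In HY/HY mice it was 188, 141 and 202 CPM at 30°C and 159, 142 and 156 CPM at 8°C. At 8°C the HY/HY libraries all lay below those of WT mice, with a log2 fold change of -0.35 (SE 0.24, adjusted p = 0.436, edgeR). The 10 endothelial markers moved with it: their summed level was 1390 to 1673 CPM in WT mice and 957 to 1269 CPM in HY/HY mice at 8°C, and their part in the result was not tested. The ratio of Gpihbp1 to Pecam1, an endothelial adhesion molecule, was 68.7% to 82.1% in WT mice at 8°C and 63.6% to 92.9% in HY/HY mice, which overlapped. Against Lpl, however, Gpihbp1 was at 3.23% to 4.03% in the former and at 1.495% to 2.41% in the latter, with no overlap, a log2 difference of -0.84 (two-sided p = 0.1 by exact permutation, which 3 libraries against 3 cannot go below).

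Angptl4 (chr17:33774900-33781575), the secreted inhibitor of the lipase that fasting raises in fat, had the highest coefficient of variation of the 10 genes in 3 of the 4 groups. It was 49.9, 181 and 87.0 CPM in WT mice at 30°C and 194, 240.3 and 356 CPM at 8°C. In HY/HY mice it was 267, 35.8 and 119.5 CPM at 30°C and 390.3, 200.04 and 146 CPM at 8°C. The 2 groups of WT mice did not overlap, and those of HY/HY mice did. The log2 fold change by cold was 1.31 (SE 0.64, adjusted p = 0.153, edgeR) in WT mice and 0.80 (SE 0.63, adjusted p = 0.593) in HY/HY mice. Neither was called, and the highest level at 30°C was 7.44 times the lowest among the 3 HY/HY mice alone.

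Vldlr (chr19:27216480-27254231), the receptor that holds triglyceride-rich lipoproteins near the lipase, rose by cold in WT mice. Its level was 38.7, 38.5 and 42.9 CPM at 30°C and 113, 139.6 and 155 CPM at 8°C, a log2 fold change of 1.76 (SE 0.32, 95% interval 2.10-fold to 5.48-fold, adjusted p = 0.0025, edgeR). In HY/HY mice it was 50.9, 36.0 and 107 CPM at 30°C and 80.9, 84.9 and 112 CPM at 8°C. The 3 WT libraries at 30°C lay within 1.11-fold of each other, whereas the HY/HY libraries spanned 2.98-fold and overlapped with those at 8°C. The log2 fold change was 0.52 (SE 0.31, adjusted p = 0.468), and it was 1.09 with an adjusted p of 0.0166 without HY/HY mouse 3 at 30°C. The cold responses differed by -1.25 (SE 0.44, adjusted p = 0.199), which did not pass. At 8°C every HY/HY library was below every WT library, with a log2 fold change of -0.55 (SE 0.31, adjusted p = 0.323).

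Cd36 (chr5:17781690-17888959), the scavenger receptor that is the main surface protein for long-chain fatty acids in fat, was not called. It was 1428, 1333 and 2077 CPM in WT mice at 30°C and 2011, 2651 and 2647 CPM at 8°C. In HY/HY mice it was 2271, 1637 and 3676 CPM at 30°C and 3171, 2922 and 4043 CPM at 8°C. Only at 8°C were the groups compared without overlap, the HY/HY libraries being higher. The log2 fold changes were 0.59 (SE 0.29, adjusted p = 0.155) by cold in WT mice, 0.42 (SE 0.29, adjusted p = 0.539) by cold in HY/HY mice, 0.65 (SE 0.29, adjusted p = 0.260) between the genotypes at 30°C and 0.47 (SE 0.29, adjusted p = 0.378) at 8°C, all by edgeR.

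Slc27a1 (chr8:71568728-71587307) encodes FATP1, the insulin-responsive transport protein of adipocytes and muscle. In WT mice it was 408, 559.8 and 989 CPM at 30°C and 1190.3, 1306 and 1248 CPM at 8°C, and in HY/HY mice it was 627, 376 and 798 CPM at 30°C and 1534, 1519.6 and 2025 CPM at 8°C. In both genotypes the libraries at 8°C were all above those at 30°C, and at 8°C the HY/HY libraries lay above the WT ones. The log2 fold change by cold was 0.94 (SE 0.32, adjusted p = 0.0528) in WT mice and 1.496 (SE 0.33, adjusted p = 0.0923) in HY/HY mice, so neither was called by edgeR. With the replicate number as a block across all 12 libraries, which no label supports, the latter was 1.52 with an adjusted p of 0.0285 and was called. Both calls depended on the setting and on single libraries. The change in WT mice passed without WT mouse 3 at 30°C (1.37, adjusted p = 0.00795). It also passed without HY/HY mouse 2 or 3 at 30°C (adjusted p = 0.0323 and 0.0331). The change in HY/HY mice passed without WT mouse 3 (adjusted p = 0.0399) or HY/HY mouse 3 at 30°C (1.76, adjusted p = 0.0229). With all 12 libraries it was also called by DESeq2 (adjusted p = 0.000524) and with no filter (adjusted p = 0.0122). It was not called with the libraries of the comparison alone. The unadjusted p by edgeR was 0.0131 in WT mice and 0.000636 in HY/HY mice. The difference between the responses was 0.56 (SE 0.45, adjusted p = 0.601), and its 95% interval ran from -0.42 to 1.54. Slc27a4 (chr2:29802634-29817522), which encodes FATP4, a transporter of many tissues, stayed between 39.9 and 60.9 CPM in all 12 libraries. It was 43.4 to 44.4 CPM at 30°C and 49.3 to 60.6 CPM at 8°C in WT mice, and 39.9 to 48.1 CPM and 53.6 to 60.9 CPM in HY/HY mice, without overlap in either genotype. The log2 fold changes by cold were 0.28 (SE 0.11, adjusted p = 0.0804) in WT mice, which became -0.06 with library totals, and 0.37 (SE 0.11, adjusted p = 0.167) in HY/HY mice.

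Fabp4 (chr3:10204342-10208616), the adipocyte fatty acid binding protein, was not called. It was 9951, 9931 and 16996 CPM in WT mice at 30°C and 17756, 21238 and 22920.1 CPM at 8°C, without overlap. In HY/HY mice it was 13645, 8198 and 25714 CPM at 30°C and 21224, 19176 and 26550.1 CPM at 8°C, with overlap. The log2 fold change by cold was 0.75 (SE 0.39, adjusted p = 0.184) in WT mice and 0.49 (SE 0.39, adjusted p = 0.597) in HY/HY mice, and between the genotypes at 8°C it was 0.11 (SE 0.39, adjusted p = 0.903, 95% interval 0.60-fold to 1.95-fold, edgeR).

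Fabp5 (chr3:10012585-10016610), on the same chromosome as Fabp4, rose by cold in WT mice and was higher in HY/HY mice already at 30°C. It was 215, 183 and 236 CPM in WT mice at 30°C and 973, 803 and 807 CPM at 8°C, a log2 fold change of 2.03 (SE 0.32, adjusted p = 0.0011, edgeR). In HY/HY mice it was 349, 1064 and 652 CPM at 30°C and 777, 849 and 1071 CPM at 8°C. The 3 HY/HY libraries at 30°C thus all lay above the WT libraries and spanned 3.05-fold. The difference was 1.70 on the log2 scale (SE 0.32, adjusted p = 0.0357). This call was lost with library totals (adjusted p = 0.0518), with the libraries of the comparison alone (0.214) and on leaving out any 1 of 9 of the 12 libraries, namely each WT library at either temperature, HY/HY mouse 3 at 30°C and HY/HY mice 1 and 2 at 8°C, with an adjusted p of up to 0.108 (without WT mouse 2 at 30°C). Markers of other cell types differed at 30°C too. The 10 macrophage markers summed to 201 to 221 CPM in WT mice, with 0 of 10 called between the genotypes. In HY/HY mice 1, 2 and 3 they summed to 353, 223 and 229 CPM, the highest sum being in the mouse with the lowest Fabp5. The 10 mammary epithelium markers went the other way from Fabp5, at 3307 to 5353 CPM in WT mice and 841 to 2106 CPM in HY/HY mice. Of these, 1 of 9 tested was called lower (Krt19, by 1.60). Their part in the level of Fabp5 was not tested. At 8°C the genotypes differed by 0.06 (SE 0.31, adjusted p = 0.934, 95% interval 0.66-fold to 1.66-fold). The log2 fold change by cold in HY/HY mice was 0.38 (SE 0.31, adjusted p = 0.600), and the contrast of the cold responses, -1.64 (SE 0.44), had an adjusted p of 0.0828 and was not called, though it passed without HY/HY mouse 1 at 30°C (-1.96, adjusted p = 0.00671). Fasn, which makes fatty acids from acetyl units, followed a like course: it was 4163 to 6033 CPM in WT mice at 30°C, 9132 to 16414 CPM in HY/HY mice at 30°C and 11266 to 15227 CPM in the 6 libraries at 8°C.

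Fabp3 (chr4:130308738-130315463) had the largest difference of the 10 genes by cold in both genotypes and between the genotypes at 8°C. In WT mice it had 16, 29 and 5 counts at 30°C and 12750, 9594 and 18586 counts at 8°C. In HY/HY mice it had 2, 6 and 5 counts at 30°C and 1435, 2603 and 360 counts at 8°C. The groups at 8°C lay far above those at 30°C, and the lowest WT library at 8°C was above the highest HY/HY library. The log2 fold change by cold was 10.38 (SE 0.73, adjusted p = 1.65e-05) in WT mice and 9.02 (SE 0.76, adjusted p = 0.0010) in HY/HY mice. The latter had an adjusted p of 0.0814 with the libraries of the comparison alone. With so few counts at 30°C the folds are known only roughly: from the pooled counts they were 1327-fold (counting interval 1007 to 1789) and 573-fold (335 to 1077), and those intervals cover counting error only. Between the genotypes at 8°C, Fabp3 was lower in HY/HY mice by 3.33 on the log2 scale (SE 0.51, adjusted p = 0.0036), that is 9.63-fold from the pooled counts. The cold responses differed by -1.36 (SE 1.20, adjusted p = 0.639) and was not resolved. At 30°C, with 13 counts in HY/HY mice and 50 in WT mice, the fitted difference of -1.97 (SE 0.93, adjusted p = 0.282) did not pass. The study placed Fabp3 among target genes that it chose partly for these directions on these same samples, so its direction here is not independent evidence. That choice also required JMJD1A binding and a histone mark of cold beige cells, both from other data. The study's list also holds Ucp1, further beige markers, Acsl5, Ppara, Apln and Gk, a glycerol kinase gene given below as Gyk, and the same limit applies to them below.

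Fabp3-ps1 (chr10:86731753-86732428) is a pseudogene copy of Fabp3 elsewhere in the genome, and read pairs that fit both places equally well were not counted for either. It had 1, 0 and 0 counts in WT mice at 30°C, 0, 1 and 0 in HY/HY mice at 30°C, 389, 203 and 448 in WT mice at 8°C and 44, 90 and 18 in HY/HY mice at 8°C. Its counts had the same order as those of Fabp3 within each group at 8°C, at 2.12% to 3.05% of the Fabp3 count in WT mice at 8°C and 3.10% to 5.13% in HY/HY mice. It was at least 181-fold higher by cold in WT mice and at least 26.5-fold higher in HY/HY mice, against a floor of 3 counts per library. Since reads of the parent can be assigned to the copy, these counts may not be its own transcript. Adding its counts to those of Fabp3 changed no call of Fabp3 in the 5 comparisons.

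Among the 3 FABPs, counted per length, Fabp4 held 92.3% to 99.1% of the sum in every library. The share of Fabp3 was 2.51% to 3.84% in WT mice at 8°C and 0.0830% to 0.634% in HY/HY mice at 8°C, and at most 0.00806% at 30°C. Fabp5 held 0.889% to 1.37% in WT mice at 30°C and 2.14% to 3.28% at 8°C. In HY/HY mice it held 1.61% to 7.73% at 30°C and 2.30% to 2.76% at 8°C.

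**Figure D2:**
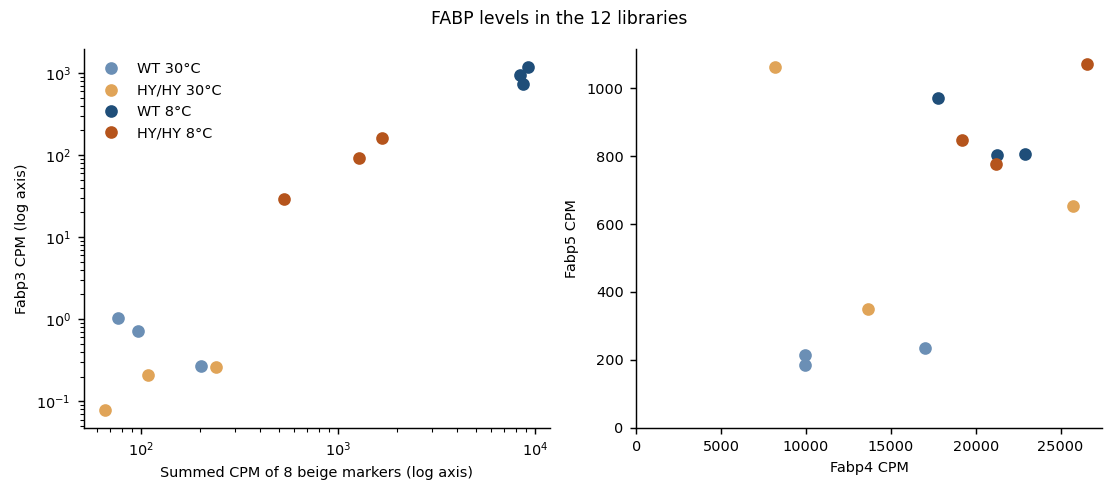
Left, Fabp3 CPM against the summed CPM of 8 beige markers in each of the 12 libraries, on log axes. Right, Fabp5 against Fabp4 in CPM. The WT libraries at 8°C hold 8352 to 9271 CPM of the beige markers and the HY/HY libraries at 8°C hold 533 to 1680 CPM, and in the latter the order of Fabp3 is that of the markers, while in WT mice at 8°C it is not. In the right plot, HY/HY mouse 2 at 30°C has 1064 CPM of Fabp5 beside 8198 CPM of Fabp4.

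The beige markers moved with Fabp3. All 8, led by Ucp1, the uncoupling protein of thermogenic adipocytes, rose by cold in WT mice, 3 rose in HY/HY mice, and 7 were lower in HY/HY mice at 8°C. Their summed level was 76.5 to 201 CPM in WT mice and 65.5 to 242 CPM in HY/HY mice at 30°C. Ucp1 itself was 5048, 5351 and 6055 CPM in WT mice and 611, 904 and 212 CPM in HY/HY mice at 8°C. In HY/HY mice at 8°C the order of the 3 libraries by Fabp3 was that by the summed beige markers. In WT mice at 8°C it was not, since mice 1, 2 and 3 had 948, 724 and 1192 CPM of Fabp3 and 8352, 8667 and 9271 CPM of the markers. The part of the beige cells in the level of Fabp3 was not tested. The skeletal muscle markers, of cells that also express Fabp3, were at 4.24 to 13.2 CPM in all 6 libraries at 8°C. The library of WT mouse 2 at 30°C, with 1427 CPM of them, held 29 of the 50 counts of Fabp3 in WT mice at 30°C. The pooled fold by cold in WT mice is set against those 50 counts, and the part of muscle in them was not tested.

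Counted over the 10 genes, 3 rose by cold in WT mice (Vldlr, Fabp3 and Fabp5) and none fell, where 10.3% of all genes tested were called higher and 6.93% lower. At an unadjusted p under 0.05 it was 5 genes, all higher, as were 18.2% of all genes. The libraries of 7 genes at 8°C did not overlap with and lay above those at 30°C, which 20.7% of all genes did, and 22.7% did so below. In HY/HY mice, 1 gene, Fabp3, rose by cold and none fell, where 0.181% of all genes were called higher and 0.0665% lower. At an unadjusted p under 0.05 it was 3 genes, all higher, as were 7.65% of all genes, and DESeq2 called 2 (Fabp3 and Slc27a1). The libraries of 3 genes did not overlap, all higher (9.33% of all genes were apart and higher and 9% apart and lower). The number called higher by edgeR, 1 with all libraries, was 3 without HY/HY mouse 3 at 30°C and 2 without WT mouse 3 at 30°C. It was 4 without both libraries that stood apart, when Lpl, Vldlr and Slc27a1 passed as well. It was 2 with the replicate block. The median log2 fold change of the 10 genes was 0.84 in WT mice and 0.51 in HY/HY mice, beside -0.07 and -0.01 over all genes tested.

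Between the genotypes at 30°C, 1 gene was called higher in HY/HY mice (Fabp5) and none lower, where 0.562% and 0.441% of all genes were. At an unadjusted p under 0.05 it was 3 genes, all higher (Vldlr, Cd36 and Fabp5), as were 8.36% of all genes. The libraries of 1 gene were apart and higher and those of 1 gene, Fabp3, apart and lower, where 7.66% and 10.6% of all genes were. For Fabp3 the unscaled counts overlapped. The nearest libraries each held 5 counts, at 0.266 CPM in WT mouse 3 and 0.260 CPM in HY/HY mouse 3. At 8°C, 1 gene was called lower (Fabp3) and none higher, where 4.42% and 1.51% of all genes were, and Fabp3 was also the 1 gene at an unadjusted p under 0.05, where 13.0% of all genes were lower at that limit. The libraries of Lpl, Cd36 and Slc27a1 were apart and higher in HY/HY mice, where 16.4% of all genes were, and those of Gpihbp1, Vldlr and Fabp3 apart and lower, where 19% were. The 8 white adipocyte markers moved with the former: their summed level at 8°C was 14273 to 16978 CPM in WT mice and 20500.4 to 27703 CPM in HY/HY mice, without overlap, with 2 of 8 called higher (Lep by 1.99 and Retn by 0.79), and their part in it was not tested. For the contrast of the cold responses, 0 of the 10 genes passed by edgeR, with 2 at an unadjusted p under 0.05 (Vldlr and Fabp5), both below 0, where 9.61% of all genes were. DESeq2 called 1, Fabp5, and 2.07% of all genes passed below 0 and 0.169% above it. The comparisons by cold share no libraries with each other, but each shares a group with each comparison of the genotypes.

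**Figure D3:**
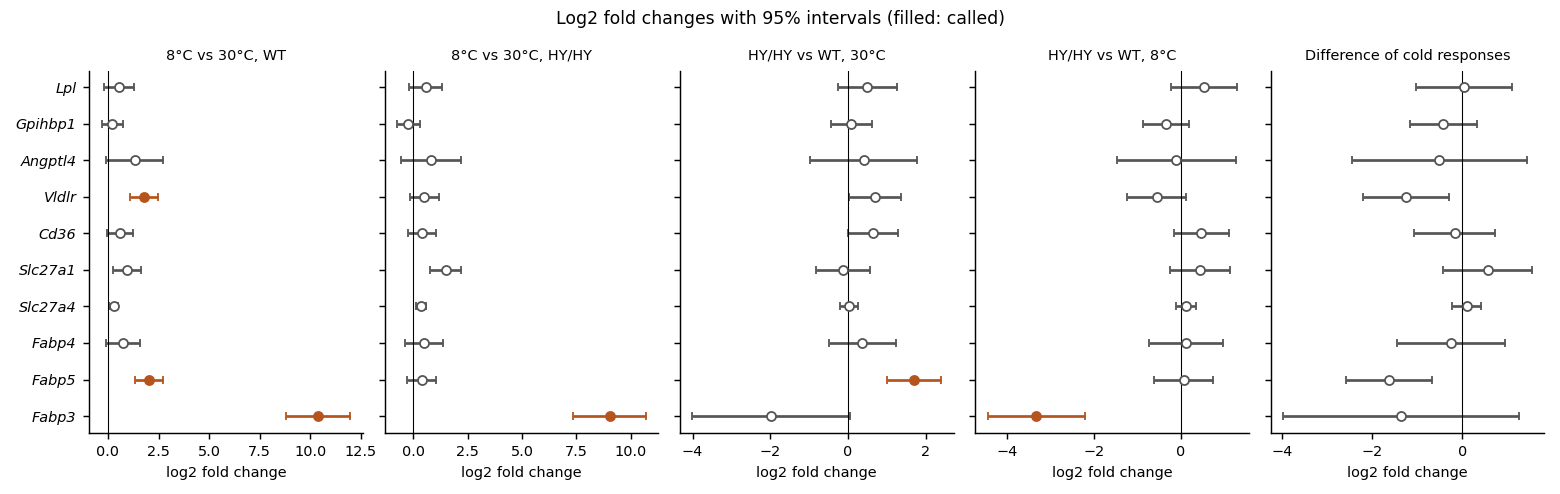
Log2 fold changes of the 10 genes with 95% intervals in the 5 comparisons, each on its own axis, with called values filled. Fabp3 is the farthest from 0 by cold in both genotypes (10.38 and 9.02) and at 8°C between the genotypes (-3.33), and no interval of the difference of cold responses belongs to a called gene.

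Ratios of 2 genes within a library do not depend on how libraries are scaled, and they were tested for 9 pairs in 4 comparisons, with 16 of 36 not overlapping and the lowest adjusted p at 0.225. Several pairs share a gene, and the share over other pairs of genes was not computed, so that count has no reference. Further ratios to Adipoq, the adipokine gene of mature adipocytes, and to Plin1, which coats the lipid droplet, were added after the levels were seen. Adipoq itself was 1214, 1529 and 1747 CPM in WT mice and 3197, 2639 and 3413 CPM in HY/HY mice at 8°C, a log2 difference of 1.04 (SE 0.33, adjusted p = 0.0767, edgeR), so each ratio to it carries that difference. Vldlr was lower in HY/HY mice at 8°C relative to both genes, by 1.61 over Adipoq and 0.86 over Plin1 on the log2 scale, with no overlap. Cd36 turned with the reference: its ratio at 8°C differed by -0.58 over Adipoq and by 0.17 over Plin1, each without overlap. Lpl, similarly, differed by -0.55 over Adipoq without overlap and by 0.20 over Plin1 with overlap. None of these permits a p below 0.1 in an exact permutation test, and the adjusted p was at least 0.171 in each of the added families of 24 tests.

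By cold in WT mice, Cd36, Fabp4, Slc27a1, Vldlr and Fabp5 lay higher without overlap relative to both Adipoq and Plin1, by 1.18 and 0.32 for Cd36 and by 1.36 and 0.50 for Fabp4. In HY/HY mice Slc27a1 did so, by 1.19 over Adipoq and 1.32 over Plin1, whereas Fabp5 overlapped over both (0.15 and 0.28). Cd36, Fabp4 and Vldlr in HY/HY mice lay higher without overlap over Plin1 (0.25, 0.40 and 0.42) but overlapped over Adipoq (0.12, 0.27 and 0.29). Lpl in HY/HY mice did likewise (0.39 and 0.26). In WT mice Lpl lay higher without overlap over Adipoq (1.14) and overlapped over Plin1 (0.28). Slc27a1 over Slc27a4, a comparison within the transport proteins, was 8.19-fold to 16.6-fold at 30°C and 25.2-fold to 34.8-fold at 8°C in HY/HY mice (exact permutation p = 0.1, adjusted p = 0.225). In WT mice it was 9.18-fold to 22.8-fold at 30°C and 19.6-fold to 26.5-fold at 8°C, which overlapped.

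**Figure D4:**
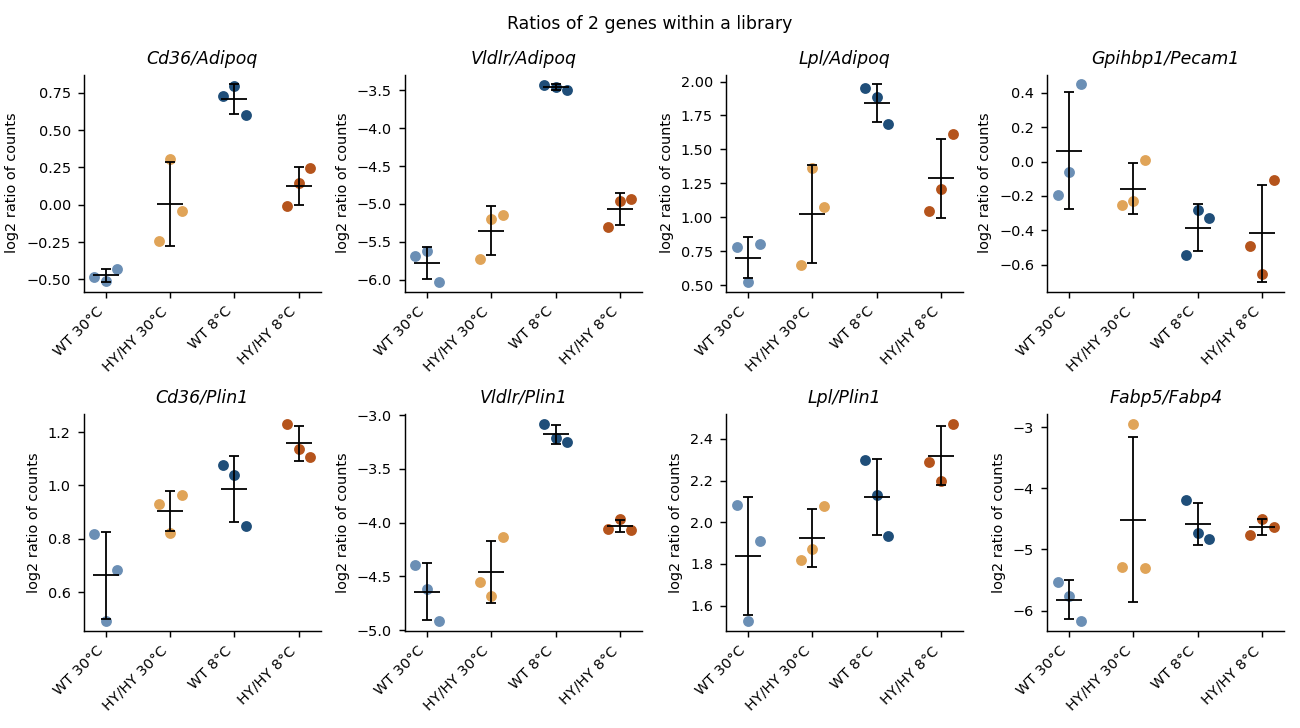
Log2 ratios of the counts of 2 genes in each library (points, 3 mice per group) with the group mean and SD. At 8°C Cd36 over Adipoq is lower and Cd36 over Plin1 higher in HY/HY than in WT mice, whereas Vldlr is lower over both.

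Other genes of the same steps were taken from lists by function. Among genes that handle the lipase, Apoc1, an apolipoprotein that restrains lipolysis, rose by cold in WT mice by 2.22 on the log2 scale (59.9 to 279.6 CPM), and Lmf1, which matures the enzyme, rose by 0.81 (26.8 to 46.9 CPM). Apoc1 was lower by 1.53 in HY/HY mice at 8°C, while Apoe, an apolipoprotein ligand of lipoprotein receptors, was higher by 1.03 (1159.96 and 2375 CPM). The 10 macrophage markers, of cells that express Apoe, were at 173 to 175 CPM in WT mice and 242 to 358 CPM in HY/HY mice at 8°C, with 3 of 10 called higher, and their part in this was not tested.

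Of the 3 other fatty acid transport proteins tested, Slc27a2, which encodes FATP2, rose by 6.17 in WT mice and was lower by 3.12 in HY/HY mice at 8°C. It was 58.3, 67.5 and 97.3 CPM in WT mice and 7.83, 14.1 and 3.41 CPM in HY/HY mice at 8°C, and at most 1.81 CPM at 30°C. Of 8 acyl-CoA synthetase genes and partners, which trap fatty acids in the cell as CoA esters, Acsl5, Acsl1 and Dbi rose by cold in WT mice (2.18, 1.06 and 0.80) and Acsbg1 fell by 1.00. Acsl5 was 398 to 479 CPM in WT mice and 101 to 138 CPM in HY/HY mice at 8°C. Its genotype difference at 8°C was -1.87 and its cold response differed by -1.71 (SE 0.18, adjusted p = 0.0047, edgeR). Acsl1, in contrast, averaged 2642 CPM (SD 436) in WT mice and 3479 CPM (SD 820) in HY/HY mice at 8°C and was not called between them. Fabp12, at a mean of at most 0.593 CPM in any group, was the 1 further FABP of 7 that passed the filter, and it rose by 2.28 in WT mice.

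Among 9 lipoprotein receptors and related lipases, Lipg, an endothelial lipase, rose by 2.21 by cold in WT mice, and Lipc and Lsr fell by 1.36 and 1.18. The 10 mammary epithelium markers, of a tissue in female scWAT, summed to 3307 to 5353 CPM in WT mice at 30°C and 2005 to 2304 CPM at 8°C, with 4 of 9 tested called lower, and their part in the fall of Lsr, an epithelial gene, was not tested. Of 12 genes of caveolae and CD36 trafficking, Lypla1, which removes palmitate from proteins, rose by 1.40. Of 12 genes of endothelial fatty acid transfer, Apln and its receptor Aplnr rose by 1.83 and 0.96. The 10 endothelial markers moved with them, at a summed level of 766 to 1207 CPM in WT mice at 30°C and 1390 to 1673 CPM at 8°C, with 4 of 10 called higher, among them Kdr by 0.83, and their part in this was not tested. Tcf15, a partner of MEOX2 in capillary fatty acid transport, was lower by 1.13 in HY/HY mice at 8°C. Of 8 PPAR-related factors, Ppara rose by 2.99, Cebpb by 1.99 and Rxrg by 0.98. At 8°C Ppara was lower by 2.13 and Cebpb by 1.87 in HY/HY mice, and the cold response of Cebpb differed by -1.96. In HY/HY mice 0 genes of these 8 lists were called by cold with edgeR, where 0.181% of all genes were called higher and 0.0665% lower. Of the 65 tested, 13 had an unadjusted p under 0.05, 11 of them higher, where 7.65% of all genes were higher and 7.01% lower at that limit. The median log2 fold change by cold in WT mice was 0.45 for the synthetases and 0.29 for the PPAR-related list, beside -0.07 over all genes.

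The genes whose log2 CPM followed each of the 10 most closely over the 12 libraries, among 14361 genes, are given as a description, since the libraries share 4 groups. For Fabp3 they were Ucp1 (Pearson's r = 0.98), Gyk (0.98), a glycerol kinase, and Arfgef2 (0.97). After subtraction of group means, r fell to 0.49 for Ucp1 and was 0.91 for Gyk. For Fabp4 they were Pon3, Sgcd and Pnpla2, the triglyceride lipase of the droplet (0.98, 0.97 and 0.97). For Fabp5 they were Fasn, Aldoart1 and an unnamed gene, ENSMUSG00000095419.1 (each 0.98). Lpl was followed by Mtap7d1, 1600014C10Rik and Aox1 (0.98, 0.98 and 0.97), and Cd36 by Aox1, BC003331 and 1600014C10Rik (0.96, 0.95 and 0.95). Gpihbp1 was followed by Ephb4, Caskin2 and Esam (0.95, 0.93 and 0.93), of which Ephb4 and Esam are endothelial. Vldlr was followed by Ghitm, Gcsh and Nudt12 (0.98, 0.97 and 0.97), and Slc27a1 by Pex3, 2310001A20Rik and Gnpat (0.95 each), Pex3 and Gnpat being genes of peroxisomes. Slc27a4 was followed by Nploc4, Prkar2a and C030046E11Rik (0.95, 0.93 and 0.93) and Angptl4 by Als2cr12, Mup11 and Gas2l1 (0.90, 0.89 and 0.88).

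Among the 10 genes themselves, Lpl, Cd36 and Fabp4 varied together across the libraries. Over the 12 libraries r was 0.97 between Lpl and Cd36, 0.92 between Lpl and Fabp4 and 0.91 between Cd36 and Fabp4, and after subtraction of group means it was 0.96, 0.93 and 0.98. HY/HY mouse 3 had the highest level of Lpl and Cd36 of its group at either temperature. Vldlr shared this, with r of 0.88, 0.91 and 0.92 with Lpl, Cd36 and Fabp4 after subtraction, as did Slc27a1 (0.79, 0.85 and 0.89) and, outside the 10 genes, Adipoq (0.84, 0.93 and 0.95). Fabp3 and Fabp5 did not: r with Fabp4 after subtraction was -0.32 and -0.20. The number 3 at 30°C and at 8°C denotes different mice.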

How the data were processed

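RNA from scWAT of 12 female WT and HY/HY (Jmjd1a +/+ and Jmjd1a HY/HY) mice, 3 per group, was sequenced by the authors as paired 50-base reads, trimmed with fastp, aligned to mm10 with STAR and counted on genes of GENCODE M25. The submitters' processing notes also name FastQC and StringTie. The authors deposited unnormalised counts of read pairs for each library, without a filter, with read pairs aligned to several places left out. Sense-strand counts were used here (95.5% to 96.2% of those on both strands). Library sizes and tests left out the 4 entries without a gene, namely unaligned pairs (25.1% to 28.8% of a library), multiply aligned pairs (26.7% to 32.2%), pairs outside genes (1.99% to 3.20%) and ambiguous pairs (0.930% to 1.10%).

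Of 55401 gene IDs, 29944 were matched to a symbol of their own, 5 of them through older symbols, and coordinates and promoters were taken from RefSeq (GRCm38.p6). Levels per kilobase use the longest coding transcript of GENCODE M1. A model with 1 mean per group was fitted with edgeR 4.0.16 in R 4.3.3 (filterByExpr, TMM, quasi-likelihood test, 8 residual degrees of freedom), without covariates, and two-sided p-values were adjusted by the method of Benjamini and Hochberg. The difference of cold responses, HY/HY minus WT, was called at an adjusted p under 0.05 alone. A fold change printed as a log2 value is the fitted one, and SE and 95% intervals are from the same fit. Ratios within a library were tested by two-sided exact permutation with a prior count of 0.5. The edgeR p-values rest on the spread between mice within groups, estimated jointly over all libraries of a fit rather than for each group. That spread was unequal. The coefficient of variation between mice was 24.3% (WT) and 26.8% (HY/HY) for the warm groups. For the cold groups its values were 12.1% (WT) and 15.5% (HY/HY). A fit with the libraries of the comparison alone uses the spread of its own 2 groups. The model was also run on simulated data with 1 spread per gene for all groups, so that run cannot speak to the unequal spread. DESeq2 1.42.0 and the other settings of the closing section were alternatives. Python 3.11.15, numpy 2.4.6, pandas 2.3.3, scipy 1.17.1 and matplotlib 3.10.9 were used for ratios and plots.

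The genes named are the 10 members, Fabp3-ps1, from each list of related genes those called (at most 3 in each direction, by size of change), the 3 genes most correlated with each member (log2 CPM with a prior count of 2, among genes with a mean of at least 1 CPM), and markers that moved with a result. The result on 1 further gene that this rule names is not reported here. Fasn is named as one of the correlated genes. The members and lists were chosen with earlier results of these data known. The libraries carry replicate numbers 1 to 3 in each group, and no source says that a number marks a shared litter or day. Whether same-numbered libraries deviated together from their group means was checked by correlation over genes. In the comparison by cold of HY/HY mice all 3 correlations were above 0.1 (0.112 to 0.303), so the block is given beside that result. It was fitted across all 12 libraries, those of WT mice included. In the other comparisons 2 of 3 were above 0.1, with an r of up to 0.346 between the genotypes at 30°C. Marker lists for progenitors, at 659 to 1351 CPM, and lymph node, at 3.90 to 21.9 CPM, were examined as well.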

Additional observations from a re-analysis of the deposited data

Results flagged for a closer look

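Cd36 over Adipoq moved in opposite directions between the genotypes at the 2 temperatures. Every HY/HY library lay above every WT library at 30°C, by 0.48 on the log2 scale, and below at 8°C, by -0.580. The same held for Fabp5 over Adipoq, with 1.45 at 30°C and -0.995 at 8°C. Whether the difference at 30°C differs from that at 8°C was not tested in either case. Over Plin1 the differences were 0.24 and 0.17 for Cd36, both without overlap and in the same direction, and 1.21 without overlap and -0.24 with overlap for Fabp5, so with that reference gene the opposite directions were not seen for Cd36, and for Fabp5 the signs were still opposite but the libraries at 8°C overlapped.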

How the results depend on the processing

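Of the 55 fitted changes (10 members and Fabp3-ps1 in 5 comparisons), 660 values with 1 library left out and 621 under the other settings were recomputed. Of the former, 620 kept their direction and side of the threshold, 9 lost and 7 gained a call and 24 turned in sign. Of the latter, it was 589, 5, 15 and 12. All turns in sign were of changes that were not called. For the number of members called higher by cold in WT mice (3), leaving out a library gave 3 to 4 and the replicate block gave 6, adding Cd36, Slc27a1 and Fabp4. This block is not supported by the labels: of 6 libraries, 4 correlated best with their own number in this comparison and between the genotypes at 8°C, 2 between the genotypes at 30°C and 6 by cold in HY/HY mice. The block changed no call of the genotype comparisons or of the difference of cold responses. By cold in HY/HY mice (1), the number was 2 with DESeq2, without a filter and with the replicate block, 0 with at least 10 counts in every library, where the filter removed Fabp3, and with the libraries of the comparison alone, 4 without both libraries that stood apart, and 1 to 3 with a library left out. Between the genotypes at 30°C (1) it was 0 with library totals, with the libraries of the comparison alone and without both libraries that stood apart, and 0 to 1 with a library left out. At 8°C (1 lower) it was 0 with at least 10 counts in every library, again because the filter removed Fabp3, and 1 with any library left out. For the difference of cold responses (0 lower) it was 1 with DESeq2 and without a filter, and 0 to 1 with a library left out, Fabp5 passing without HY/HY mouse 1 at 30°C (adjusted p = 0.00671).

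With library totals the log2 change turned for Gpihbp1 (-0.10) and Slc27a4 (-0.058) by cold in WT mice, Slc27a4 between the genotypes at 30°C (-0.052), Angptl4 at 8°C (0.056) and the Cd36 difference of cold responses (0.049). Without both libraries that stood apart it turned for Gpihbp1 by cold in WT mice (-0.033), for Lpl (-0.13), Gpihbp1 (-0.27), Slc27a4 (-0.033) and Fabp4 (-0.30) in HY/HY against WT mice at 30°C, and also for the differences of cold responses of Cd36 (0.32) and Fabp4 (0.42). With 1 library left out, the changes that turned ranged from -0.031 to 0.58 for Gpihbp1 by cold in WT mice. Between the genotypes at 30°C they ranged from -0.16 to 0.44 for Gpihbp1, -0.45 to 1.04 for Angptl4, -0.37 to 0.31 for Slc27a1, -0.024 to 0.10 for Slc27a4, -0.16 to 0.68 for Fabp4 and -1.64 to 1.59 for Fabp3-ps1. At 8°C they ranged from -0.60 to 0.19 for Angptl4, -0.028 to 0.21 for Fabp4 and -0.078 to 0.16 for Fabp5. For the difference of cold responses they ranged from -0.25 to 0.48 for Lpl, -1.14 to 0.35 for Angptl4, -0.41 to 0.19 for Cd36 and -0.57 to 0.28 for Fabp4. Where no construction is named, the cause was not tested. Slc27a1 by cold in WT mice (adjusted p = 0.0528) passed with DESeq2 (0.0120), with no filter (0.0247) and with the filter of at least 10 counts (0.0474). It also passed there with its own libraries (0.0450) and with the replicate block (0.0132). Slc27a1 by cold in HY/HY mice (adjusted p = 0.0923) passed with DESeq2 (0.000524), with no filter (0.0122) and with the replicate block (0.0285). It did not pass there with the filter of at least 10 counts or with its own libraries. At 5 to 29 counts of Fabp3 per WT library and 2 to 6 per HY/HY library at 30°C, depth limits what can be said of that gene at 30°C.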
